A study of Homo sapiens with 6 samples.

Results

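The 33 genes described here encode the enzymes of glycolysis, the transporters and kinases around them, and a set of proteins whose genes cells switch on when oxygen is short. They were chosen by gene symbol from knowledge of the pathway, with earlier results of these data known. All 33 were found among the 33367 genes to which the transcript tables could be summed. Of these, 32 passed the filter on low counts. ADM, which encodes the vessel-dilating peptide adrenomedullin, did not, with 0.0331 to 0.480 CPM (reads relative to the library total).

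The libraries came from K562, an established human erythroleukaemia line that makes embryonic and fetal globins. Clones c1 and c2 carried a doxycycline-inducible short hairpin RNA (shRNA) against CDAN1, the gene of codanin-1 that is mutated in congenital dyserythropoietic anaemia. A further clone carried a non-targeting shRNA (NT). All were kept in 2 µg/ml puromycin and taken at day 4, and each of the 3 clones gave 1 library with 1 µg/ml doxycycline (induced) and 1 without it (uninduced). That made 2 libraries of CDAN1 shRNA cells with doxycycline, 2 without it, and 1 NT library of either state. Each clone stands for 1 cell line of its own, so the effect of a clone and that of the shRNA it carries cannot be told apart. Nothing in the labels says that the libraries came from separate cultures, so p-values measure the spread between these libraries. No low-oxygen culture is among the groups.

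Glycolysis splits glucose into pyruvate and yields ATP without oxygen. The steps that take up glucose, phosphorylate it and commit fructose 6-phosphate are its main points of control, and lactate dehydrogenase regenerates the NAD+ that the pathway uses. When oxygen is low, the prolyl hydroxylases EGLN1 to EGLN3 stop marking the alpha subunits HIF-1α and HIF-2α for destruction, and the stabilised hypoxia-inducible factors (HIF) raise the transcription of most glycolytic genes and of genes for blood vessel growth, pH control and mitochondrial turnover. Mature red cells hold no mitochondria and live on glycolysis alone, and inherited loss of several of these enzymes causes haemolytic anaemia.

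The libraries held 28318555 to 32352246 estimated reads over all listed transcripts, matched to a gene or not, and mitochondrial genes took 4.03% to 5.72% of them. CDAN1 itself stood at 17.0 CPM in the induced and 37.0 CPM in the uninduced c1 library, at 29.8 and 55.4 CPM in the induced and uninduced c2 libraries, and at 70.2 and 62.5 CPM in the induced and uninduced NT libraries. Uninduced c1 and c2 were thus already below NT. All 8 erythroleukaemia markers examined, among them HBG1, HBE1 and GATA1, were detected. The clones differed in lineage markers. The summed level of 12 megakaryocyte markers, among them ITGA2B and ITGB3, was 102 and 140.3 CPM in induced and uninduced c1, 449 and 519.9 CPM in induced and uninduced c2, and 167 and 208 CPM in induced and uninduced NT. The sum of 14 erythroid markers was 17210 and 16420 CPM in induced and uninduced c1, 12910 and 11420 CPM in induced and uninduced c2, and 17590 and 16630 CPM in induced and uninduced NT. In RNA from whole cultures, fewer cells of a type and less RNA per cell cannot be told apart. The part of these markers in the differences below was not tested. Markers of lymphoid cells (9.03 to 24.7 CPM in sum, MS4A1 at 0), epithelial cells (24.0 to 55.3 CPM, KRT5 and KRT14 at 0) and fibroblasts (5.30 to 15.9 CPM) were low beside the erythroid sum. The epithelial sum was nearly all EPCAM, since the other 3 markers were under 1 CPM. EPCAM was lower than in NT by a log2 fold change of −0.48 in c1 and −1.08 in c2. In the clone comparisons below, EPCAM, CD3D, COL1A1 and COL1A2 passed the threshold in at least 1.

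Scaled for transcript length, in TPM (transcripts relative to the library total), the 33 genes together made up 1.02% to 1.13% of a library. The most abundant were the aldolase ALDOA (2139 to 2387 TPM), the triose phosphate dehydrogenase GAPDH (2124 to 2434 TPM) and the enolase ENO1 (1645 to 1962 TPM). The lactate dehydrogenases LDHB (709.8 to 796 TPM) and LDHA (634 to 785 TPM) followed, then triose phosphate isomerase TPI1 (507 to 590.1 TPM). The first place of ALDOA rests on short transcripts that are not annotated as coding. In induced c1, ALDOA-213 (553 bases) held 653 TPM and the retained-intron ALDOA-214 (801 bases) 600 TPM. In CPM, ALDOA averaged 1646, below GAPDH at 2294 and ENO1 at 2498. The hypoxia genes were further down, from VEGFA at 73.5 to 99.7 TPM to CA9, a membrane carbonic anhydrase that is among the most oxygen-sensitive HIF targets, at 0.195 to 1.32 TPM and ADM at 0.0225 to 0.518 TPM. At 3 steps most of the TPM of a gene pair came from ENO1, HK1 or ALDOA. ENO2, the neuronal enolase, made up 0.52% to 1.24% of the TPM of ENO1 and ENO2, HK2 made up 5.3% to 6.01% of that of HK1 and HK2, and ALDOC, the brain aldolase, 2.6% to 6.42% of that of ALDOA and ALDOC. Within 3 pairs the split was nearer to even. SLC2A3 made up 39.5% to 58.3% of the TPM of SLC2A1 and SLC2A3, and LDHA 44.3% to 50.7% of that of LDHA and LDHB. EGLN3 made up 42.6% to 53.0% of that of EGLN1 and EGLN3. For EGLN1 this included 6.29 to 10.6 TPM of the short processed transcript EGLN1-202 (829 bases). In CPM, EGLN1 averaged 74.2 and EGLN3 31.6, and the related EGLN2, left out of the split, averaged 105. The split of each pair also rests on how the estimates assign transcripts of different length.

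**Figure D1:**
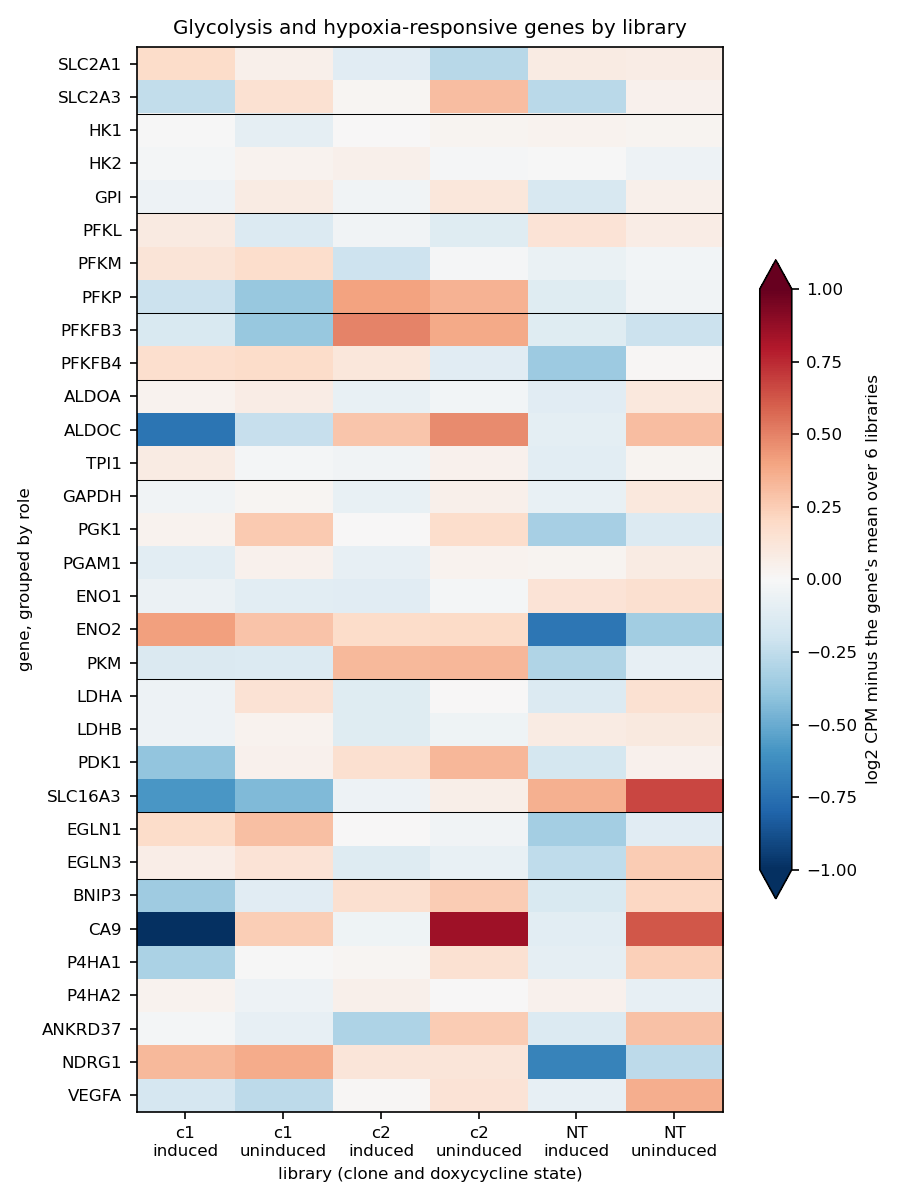
Each row is a gene and each column a library. Colour gives log2 CPM minus the gene's own mean over the 6 libraries, and black lines separate roles. ENO2 and NDRG1 are lowest in the NT columns, PFKP, PFKFB3 and PKM are highest in the c2 columns, and ALDOC is lowest in the c1 columns. CA9 has the widest range, at 0.231 to 1.23 CPM, and its lowest value lies below the colour scale.

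Most calls among these genes came from comparisons between clones. Those fits held doxycycline as a term, while the main fits for knockdown and doxycycline left the clone out. The numbers of calls are therefore not on an equal footing. With doxycycline as a term, edgeR's quasi-likelihood test (Benjamini-Hochberg adjusted over 14075 genes, threshold 0.05) called 9 of 32 members between c1 and NT, 4 higher and 5 lower in c1, where it called 27.8% of all genes (13.8% higher and 14% lower). Between c2 and NT it called 12 members, 9 higher and 3 lower in c2, where it called 21.1% of all genes (11.8% higher and 9.21% lower). Between c1 and c2 it called 10 members, 3 higher and 7 lower in c1, where it called 26.8% of all genes (11.9% higher and 14.9% lower). The share of members was thus 28.1%, 37.5% and 31.2%, the first close to the share of all genes. The median log2 fold change of the members was −0.01, 0.04 and −0.01, beside 0.00, 0.00 and 0.01 over all genes. Single genes of the pathway thus differed in both directions, with medians near those of all genes. With size factors of another kind (RLE) the split between c1 and c2 became 1 higher and 9 lower. With transcript length as an offset the splits were 4 higher and 3 lower in c1 against NT, 7 higher and 1 lower in c2 against NT, and 2 higher and 7 lower in c1 against c2. Both comparisons with NT use the same NT libraries, so shared directions in them are not independent. Of the members called in both, 4 had the same direction (PGK1, ENO1, ENO2 and NDRG1) and 2 opposite directions (PFKP and ALDOC). Over all genes, 1275 of the 1530 called in both had the same direction.

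**Figure D2:**
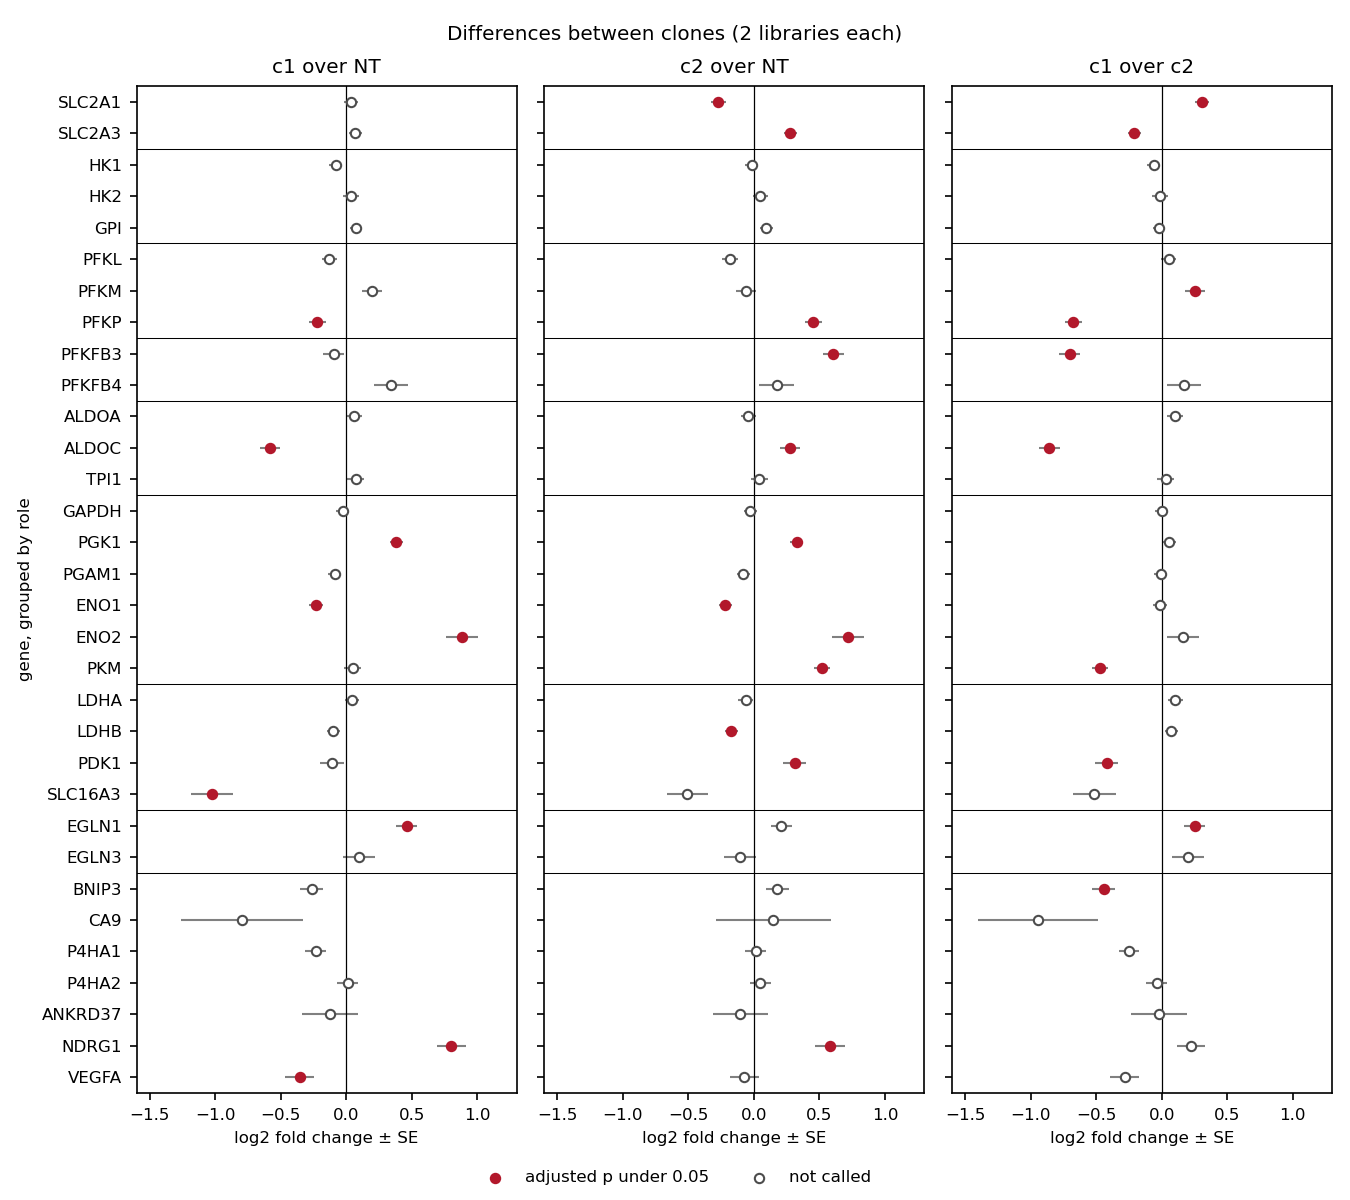
Points give the log2 fold change of each of 32 genes and bars its standard error, for c1 over NT, c2 over NT and c1 over c2 (2 libraries per clone, doxycycline as a term). Filled points passed an adjusted p of 0.05. PGK1, ENO2 and NDRG1 lie to the right and ENO1 to the left in both comparisons with NT, which share the NT libraries, and PFKP and ALDOC lie on opposite sides in them.

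Glucose enters these cells through SLC2A1 (GLUT1, chr1:42925375-42959176, minus strand, all gene coordinates on GRCh38) and the high-affinity SLC2A3 (GLUT3, chr12:7919230-7936275, minus strand). SLC2A1 stood at 303 CPM in induced and 276 CPM in uninduced c1, at 248 and 221 CPM in induced and uninduced c2, and at 283 and 282 CPM in induced and uninduced NT. Both c2 libraries lay below all others. The log2 fold change was −0.27 ± 0.06 (SE) for c2 against NT (adjusted p = 0.0135) and 0.31 ± 0.06 for c1 against c2 (adjusted p = 0.00654). SLC2A3 stood at 288 CPM in induced and 379 CPM in uninduced c1, at 345 and 423 CPM in induced and uninduced c2, and at 283 and 351 CPM in induced and uninduced NT. Here c2 was the higher clone in each doxycycline state, by 0.28 ± 0.05 on the log2 scale against NT (adjusted p = 0.00858), and c1 was lower than c2 (−0.21 ± 0.05, adjusted p = 0.0219), although the libraries of the clones overlapped. The SLC2A1 call of c2 against NT was lost without either c2 library (adjusted p 0.0745 and 0.16), without uninduced NT (0.121) and without the doxycycline term (0.0504), and that of c1 against c2 without uninduced c2 (0.0996). The SLC2A3 call of c2 against NT was lost without either c2 library (0.128 and 0.062), without uninduced NT (0.0644) and without the doxycycline term (0.284). That of c1 against c2 was lost without either c2 library (0.219 and 0.113), without induced c1 (0.0682), with transcript length as an offset (0.0741) and without the doxycycline term (0.413). SLC2A14, a near-identical copy of SLC2A3 with which reads could be shared, was estimated at 1.98 to 2.56 CPM.

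Hexokinase, the enzyme that traps glucose as glucose 6-phosphate, was steady. HK1 (chr10:69269984-69401884, plus strand) ranged from 826 to 903 CPM, HK2 from 101 to 108 CPM, and the next enzyme, the isomerase GPI, from 452 to 546 CPM. None of the 3 was called between any clones. The steady sum of HK1 covered a different makeup in c2. HK1-201 starts at an erythroid first exon and encodes the red cell hexokinase, while HK1-202 starts at the ubiquitous first exon, whose product binds to mitochondria. Their first 30 coding bases, read from the GENCODE transcripts, show what separates them, since the exons that follow are shared. They match at 14 of 30 positions, and capitals mark the start codon. The first lies at chr10:69315955-69315984 and the second at chr10:69318948-69318977, both on the plus strand of GRCh38.
HK1-201: ATGgactgtgagcacagcctgagtttgccc
HK1-202: ATGatcgccgcgcagctcctggcctattac
HK1-201 held 67.3% and 68.0% of the estimated HK1 reads in induced and uninduced c1, 58.6% and 51.9% in induced and uninduced c2, and 66.3% and 64.1% in induced and uninduced NT. HK1-202 held 24.8% and 24.7% in induced and uninduced c1, 34.7% and 40.4% in induced and uninduced c2, and 26.3% and 30.2% in induced and uninduced NT. Both c2 libraries thus had the lowest share of the erythroid transcript and the highest share of the ubiquitous transcript. In level, HK1-201 was at 518 and 466 CPM in induced and uninduced c2 and at 561.85 to 599 CPM elsewhere, and HK1-202 at 307 and 363 CPM in c2 and at 204 to 271 CPM elsewhere. These shares are estimates with 1 library per clone and state and were not tested. The sum of erythroid markers was also lowest in the c2 libraries, and its part in the shares was not tested.

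**Figure D3:**
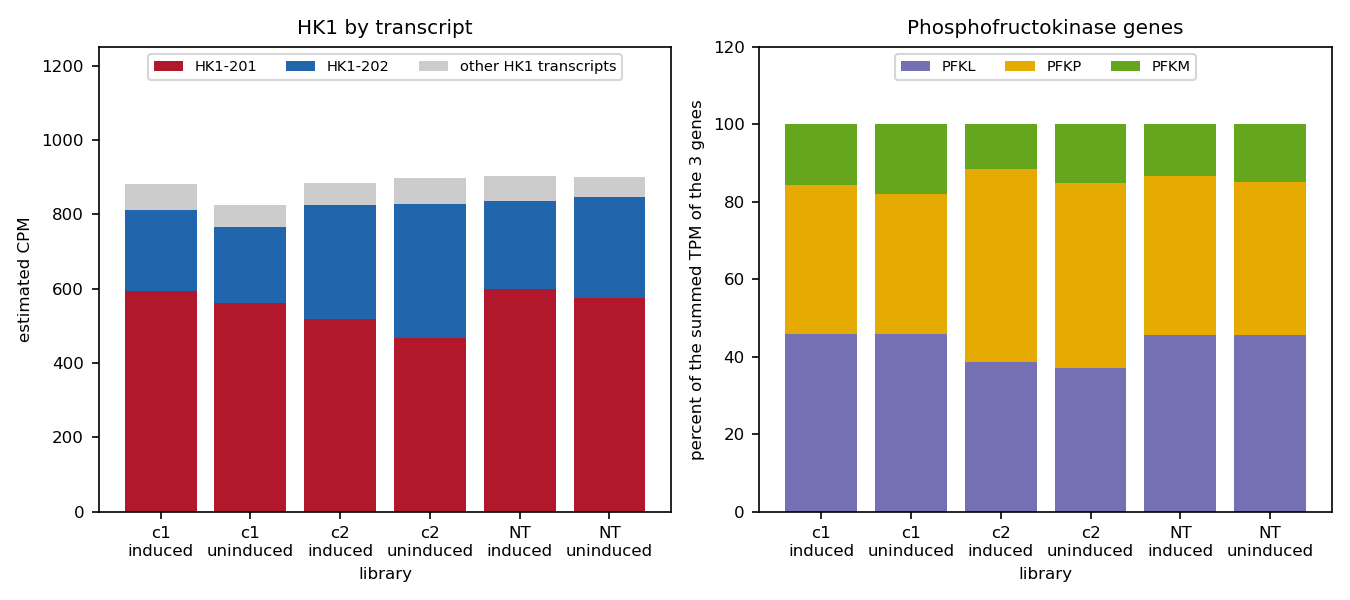
Left, stacked bars of estimated CPM of HK1-201, HK1-202 and the other HK1 transcripts in each library. Right, stacked bars of the percent of the summed TPM of PFKL, PFKP and PFKM that each gene held. In c2 the HK1-201 block is smaller at a similar total, and the PFKP block is larger (49.7% induced and 47.6% uninduced, against 36.3% to 41.1% in the other 4 libraries).

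Phosphofructokinase, which commits sugar to glycolysis, is a tetramer of liver (PFKL), muscle (PFKM) and platelet (PFKP) subunits. PFKP (chr10:3066333-3137712, plus strand) stood at 153 CPM in induced and 137 CPM in uninduced c1, at 236 and 228 CPM in induced and uninduced c2, and at 164 and 174 CPM in induced and uninduced NT. The 3 clones did not overlap, with c2 highest and c1 lowest. The log2 fold change was 0.45 ± 0.07 for c2 against NT (adjusted p = 0.00322) and −0.67 ± 0.07 for c1 against c2 (adjusted p = 0.000412), and both calls held in every alternative fit and with any library left out. The smaller difference of c1 from NT (−0.22 ± 0.07, adjusted p = 0.0452) was lost without uninduced c1 (adjusted p = 0.214), without uninduced NT (0.353), without induced c2 (0.0829), without uninduced c2 (0.0824), with transcript length as an offset (0.0723) and without the doxycycline term (0.072). The megakaryocyte markers had the same order of clones as PFKP, the subunit named for platelets. That order was not particular to PFKP, since the clone means of ALDOC, PFKFB3, PDK1 and BNIP3, among others, also ran c2, NT and c1. The part of the markers was not tested. PFKM stood at 59.8 CPM in induced and 61.9 CPM in uninduced c1, at 47.6 and 54.5 CPM in induced and uninduced c2, and at 52.4 and 53.9 CPM in induced and uninduced NT. It was called in 1 comparison, higher in c1 than in c2 (0.26 ± 0.08, adjusted p = 0.0427), a call lost under RLE scaling (0.051), with DESeq2 (0.111), with the length offset (0.55), without the doxycycline term (0.0833) and without any of the c1 or c2 libraries (0.0905 to 0.36). PFKL, at 205 to 248 CPM, was not called. By TPM, PFKP made up 49.7% and 47.6% of the 3 subunits in induced and uninduced c2, against 36.3% to 41.1% in the other libraries.

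PFKFB3 and PFKFB4 make and break fructose 2,6-bisphosphate, the strongest activator of phosphofructokinase, and PFKFB3 is the form with the highest kinase activity. PFKFB3 (chr10:6144934-6254644, plus strand) stood at 33.04 CPM in induced and 28.2 CPM in uninduced c1, at 51.6 and 47.7 CPM in induced and uninduced c2, and at 33.7 and 31.6 CPM in induced and uninduced NT. Both c2 libraries lay above all others, while c1 and NT overlapped. The log2 fold change was 0.60 ± 0.08 for c2 against NT (adjusted p = 0.00214) and −0.70 ± 0.08 for c1 against c2 (adjusted p = 0.000806), and both calls held in every alternative fit and with any library left out. PFKFB4 ranged from 34.3 to 50.02 CPM and was not called.

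Aldolase splits fructose 1,6-bisphosphate into trioses. ALDOC (chr17:28573115-28577264, minus strand) stood at 67.7 CPM in induced and 95.3 CPM in uninduced c1, at 136 and 156 CPM in induced and uninduced c2, and at 105 and 139 CPM in induced and uninduced NT. Both c1 libraries were below all others, and c2 and NT overlapped. The log2 fold change was −0.86 ± 0.08 for c1 against c2 (adjusted p = 0.000274) and −0.58 ± 0.08 for c1 against NT (adjusted p = 0.00191, or 0.0569 without the doxycycline term). The higher level in c2 than in NT (0.27 ± 0.08, adjusted p = 0.0413) was lost without induced c2 (0.425), without either NT library (0.182 and 0.0971), with the length offset (0.108) and without the doxycycline term (0.375). ALDOA, with 1518 to 1764 CPM, and TPI1, with 455 to 518 CPM, were not called.

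In the later steps, which earn back ATP, 3 of 6 genes were called between c1 and NT, 4 between c2 and NT and 1 between c1 and c2, where 27.8%, 21.1% and 26.8% of all genes were called. ENO2 (chr12:6913745-6923698, plus strand) stood at 39.2 CPM in induced and 35.9 CPM in uninduced c1, at 33.4 and 33.6 CPM in induced and uninduced c2, and at 17.8 and 23.1 CPM in induced and uninduced NT. Both CDAN1 shRNA clones, induced or not, were above NT, by 0.88 ± 0.12 in c1 (adjusted p = 0.00236) and 0.72 ± 0.12 in c2 on the log2 scale (adjusted p = 0.00648, or 0.0574 without induced c2). ENO1 (chr1:8861000-8879250, minus strand), the main enolase, went the other way. It stood at 2392 and 2320.2 CPM in induced and uninduced c1, at 2298 and 2452 CPM in induced and uninduced c2, and at 2739 and 2785 CPM in induced and uninduced NT, a log2 fold change of −0.23 ± 0.05 in c1 (adjusted p = 0.0163) and −0.22 ± 0.05 in c2 (adjusted p = 0.0239). Those ENO1 calls were lost without either NT library (adjusted p 0.0749 and 0.0831 in c1, 0.103 and 0.111 in c2), in c1 without uninduced c1 (0.0673), and in c2 without either c2 library (0.269 and 0.0799) or with the length offset (0.0518).

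PGK1 (chrX:77910739-78129296, plus strand), the kinase that makes the first ATP of the payoff phase, stood at 169 and 198 CPM in induced and uninduced c1, at 166 and 187 CPM in induced and uninduced c2, and at 131 and 151 CPM in induced and uninduced NT. All libraries of the CDAN1 shRNA clones were above both NT libraries. The log2 fold change was 0.38 ± 0.05 for c1 (adjusted p = 0.00188) and 0.33 ± 0.05 for c2 against NT (adjusted p = 0.0042, or 0.0723 without induced c2 and 0.0764 without the doxycycline term). A short processed transcript, PGK1-205, took 22.0% to 30.5% of the estimated PGK1 reads. The full-length PGK1-201 alone gave 120.4 and 136 CPM in induced and uninduced c1, 118 and 134 CPM in induced and uninduced c2, and 95.3 and 115.04 CPM in induced and uninduced NT, again with NT lowest. PKM (chr15:72199029-72231822, minus strand), the last enzyme of the pathway, stood at 475 and 477 CPM in induced and uninduced c1, at 658 and 662 CPM in induced and uninduced c2, and at 427 and 495 CPM in induced and uninduced NT. Both c2 libraries were above all others, by 0.52 ± 0.06 against NT (adjusted p = 0.00152), and c1 was lower than c2 (−0.47 ± 0.06, adjusted p = 0.0017), and both calls held in every alternative fit and with any library left out. PKM-202, the PKM2 form of dividing cells, held 93.1% to 94.6% of PKM reads in all 6 libraries, so the clones differed in amount with a near-constant makeup. GAPDH (2180.5 to 2468 CPM) and PGAM1 (375 to 428 CPM) were not called between clones. GAPDH, often used as a loading reference, differed by −0.03 ± 0.05 on the log2 scale in c1 and in c2 against NT.

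Of the genes that decide the fate of pyruvate and lactate, LDHA, the subunit that favours lactate, was at 859.6 to 1051 CPM and was not called. LDHB, the subunit that favours pyruvate, stood at 695 CPM in induced and 741 CPM in uninduced c1, at 663 and 700.3 CPM in induced and uninduced c2, and at 765 and 772 CPM in induced and uninduced NT. Both NT libraries lay above all others. It was lower in c2 than in NT (−0.17 ± 0.05, adjusted p = 0.041), a call that did not hold without any of the 4 c2 or NT libraries (adjusted p 0.0992 to 0.303), with the length offset (0.0958) or without the doxycycline term (0.093). PDK1, a kinase that inhibits pyruvate dehydrogenase, stood at 34.7 and 46.9 CPM in induced and uninduced c1, at 50.9 and 57.3 CPM in induced and uninduced c2, and at 40.4 and 47.1 CPM in induced and uninduced NT. It was lower in c1 than in c2 (−0.42 ± 0.09, adjusted p = 0.0121) and higher in c2 than in NT (0.31 ± 0.09, adjusted p = 0.0441). The first of these was lost without induced c1 (0.0754), without induced c2 (0.13) and without the doxycycline term (0.0959), and the second in 7 of the alternatives, with adjusted p 0.0606 to 0.35. SLC16A3, the lactate exporter MCT4, was low everywhere, at 3.74 and 4.13 CPM in induced and uninduced c1, 5.41 and 5.83 CPM in induced and uninduced c2, and 7.16 and 8.89 CPM in induced and uninduced NT. The 3 clones did not overlap. For the gene as a whole, the difference of c1 from NT (−1.02 ± 0.16, adjusted p = 0.00381) held in every alternative. That of c2 from NT missed the threshold (−0.51 ± 0.16, adjusted p = 0.0572). The transcript SLC16A3-211 was not lower in c1, at 3.16 and 3.52 CPM in induced and uninduced c1 and 2.71 and 2.57 CPM in induced and uninduced NT. SLC16A3-201 in induced NT (4.1 CPM) and SLC16A3-214 in uninduced NT (5.39 CPM) were each estimated at 0 in the other NT library and in c1.

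Among the oxygen sensors and other HIF targets, EGLN1 (PHD2, chr1:231363751-231425044, minus strand), the main HIF prolyl hydroxylase, stood at 83.3 and 90.3 CPM in induced and uninduced c1, at 73.8 and 71.7 CPM in induced and uninduced c2, and at 58.1 and 68.1 CPM in induced and uninduced NT. The clones were ordered c1, c2 and NT with no overlap. The difference of c1 from NT (0.46 ± 0.08, adjusted p = 0.00516) held in every alternative. That of c1 from c2 (0.25 ± 0.08, adjusted p = 0.049) was lost with RLE (0.0555), DESeq2 (0.0925), no doxycycline term (0.0906) and without any c1 or c2 library (0.0782 to 0.435). NDRG1, a stress-induced gene named for its regulation by MYCN, had the same pattern as ENO2. It stood at 40.5 and 41.8 CPM in induced and uninduced c1, at 35.2 and 35.2 CPM in induced and uninduced c2, and at 20.4 and 27.0 CPM in induced and uninduced NT. It was higher by 0.80 ± 0.11 in c1 (adjusted p = 0.00237) and by 0.58 ± 0.11 in c2 than in NT on the log2 scale (adjusted p = 0.0106, or 0.103 without induced c2 and 0.059 without induced NT).

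VEGFA, the main growth factor for blood vessels, stood at 143 and 134 CPM in induced and uninduced c1, at 162 and 176 CPM in induced and uninduced c2, and at 151 and 206 CPM in induced and uninduced NT. The lower level in c1 than in NT (−0.36 ± 0.11, adjusted p = 0.049) was lost without uninduced NT (0.369), without uninduced c1 (0.313), without either c2 library (0.0697 and 0.0694), with DESeq2 (0.237), with the length offset (0.151) and without the doxycycline term (0.086). BNIP3, which targets mitochondria for removal, was at 39.5 and 46.7 CPM in induced and uninduced c1, at 56.5 and 60.2 CPM in induced and uninduced c2, and at 45.6 and 58.3 CPM in induced and uninduced NT. It was lower in c1 than in c2 (−0.44 ± 0.09, adjusted p = 0.00834, or 0.112 without induced c2 and 0.0544 without the doxycycline term). Its copy BNIP3P1 was estimated at 8.89 to 14.6 CPM, so reads could be divided between them. The remaining members of this group, EGLN3 (26.3 to 37.4 CPM), CA9 (0.231 to 1.23 CPM), the collagen prolyl hydroxylase subunits P4HA1 (49.4 to 72.5 CPM) and P4HA2 (27.7 to 30.3 CPM), and ANKRD37 (3.25 to 4.94 CPM), were not called.

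Knockdown of CDAN1 was then examined. The study names as controls the uninduced clones together with NT in either state, 4 libraries in all, to be set against induced c1 and c2. In that comparison edgeR called 0 of 32 members and 0% of all genes, with 0 members and 322 genes (2.29%) at an unadjusted p under 0.05. CDAN1 itself was thus not called, although it was lower in the induced library of c1 and of c2. This fit left the clone out, so differences between clones entered its spread. The absence of calls therefore does not show that the members were unchanged. DESeq2 called 0 members and limma voom 0. With the clone as a block it called 0 members and 6 genes (0.0426%), and 8 members at an unadjusted p under 0.05, where 11.6% of all genes were. Both knockdown libraries lay below all 4 controls for 2 members, PGAM1 and LDHB, where 5.19% of all genes did so, and above all 4 for 0 members, where 4.37% of genes did so. PGAM1 stood at 375 CPM in induced c1 and 382 CPM in induced c2, against 412 to 428 CPM in the controls. LDHB stood at 695 and 663 CPM in induced c1 and c2, against 700.3 to 772 CPM in the controls. The median log2 fold change was −0.05 for members and 0.00 for all genes.

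Libraries with and without doxycycline were then compared within each clone. In c1 and c2 doxycycline also induced the shRNA against CDAN1, so effects of the drug and of the shRNA cannot be told apart within those pairs. Of the 32 members, 17 were lower in the induced library of all 3 clone pairs, where 20% of all genes were, and 4 were higher in all 3, where 17.8% of all genes were. The 17 were SLC2A3, GPI, PFKM, ALDOA, ALDOC, GAPDH, PGK1, PGAM1, PKM, all 4 genes of lactate and pyruvate fate (LDHA, LDHB, PDK1 and SLC16A3), EGLN3, BNIP3, CA9 and P4HA1. The 4 higher ones were SLC2A1, PFKL, PFKFB3 and P4HA2. Under RLE scaling 18 were lower, and with library totals only 15 were lower, where LDHB and PKM no longer were. By pair, 21 members were lower in c1, 23 in c2 and 26 in NT, where 52.8%, 50.1% and 50.6% of all genes were. The NT pair, which has no CDAN1 shRNA, had the lowest median, at −0.22 on the log2 scale, beside −0.05 in c1 and −0.09 in c2, while the median of all genes was −0.01 in c1 and 0.00 in c2 and NT. Members are not replicates, and these counts carry no test.

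**Figure D4:**
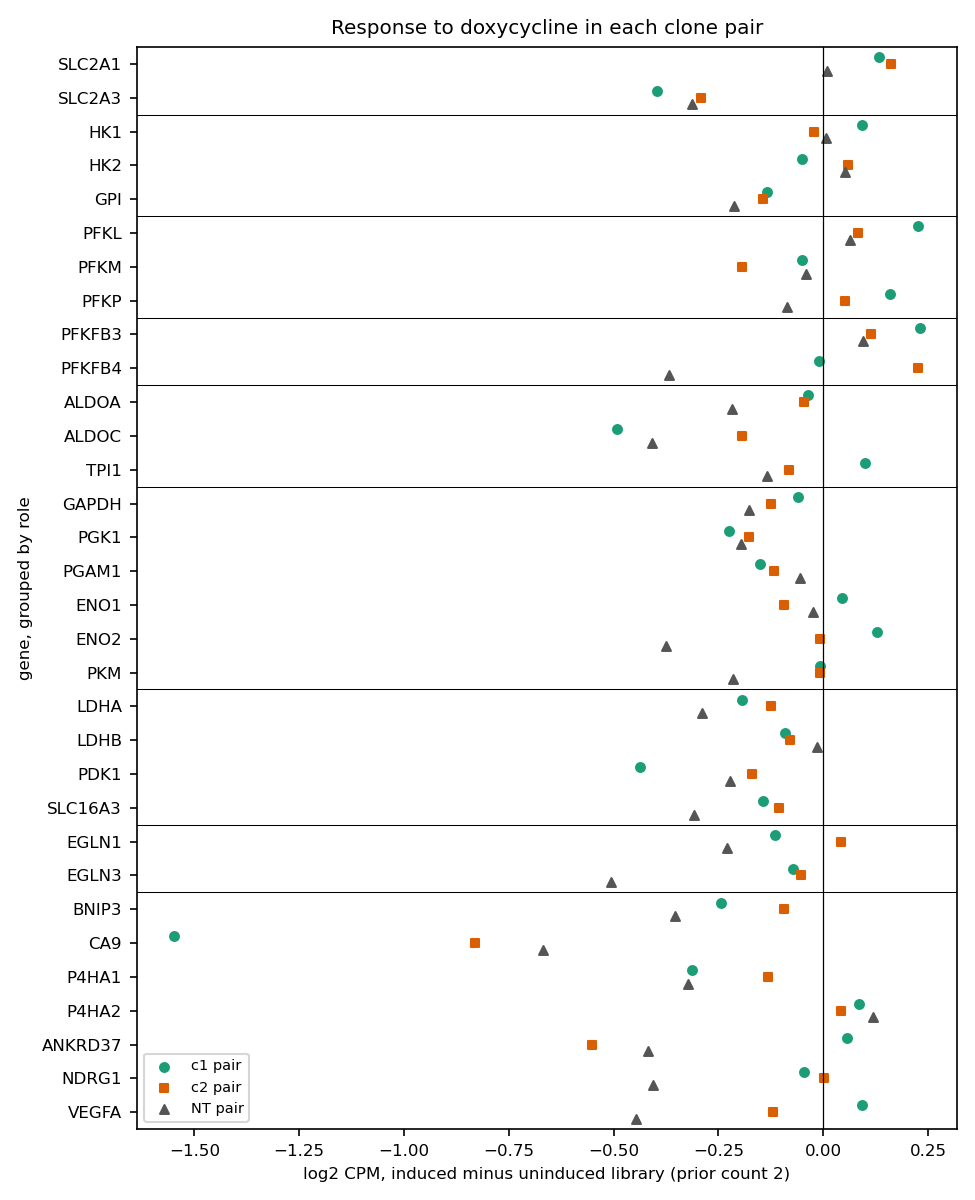
Each point is the difference in log2 CPM between a clone with and without doxycycline (prior count of 2), from 1 library of either state. Points left of 0 are lower with doxycycline. SLC2A3, ALDOC, PGK1, LDHA and PDK1 lie left of 0 in all 3 clones, PFKFB4, ENO2, EGLN3, NDRG1 and VEGFA lie furthest left in NT, and CA9, with the widest range, was at most at 1.23 CPM.

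In the test over 3 induced and 3 uninduced libraries, edgeR called 0 of 32 members and 0% of genes without a clone block, with 3 members (SLC2A3, GPI and LDHA) and 217 genes (1.54%) at an unadjusted p under 0.05, and DESeq2 and voom called 0 members each. With the clone as a block, SLC2A3 was called alone among the members, where 0.128% of genes were called and 0.107% were called lower. It was at 288 CPM in induced and 379 CPM in uninduced c1, 345 and 423 CPM in induced and uninduced c2, and 283 and 351 CPM in induced and uninduced NT, and so fell in each clone, to 75.9% of the uninduced level in c1, 81.7% in c2 and 80.5% in NT. The log2 fold change was −0.33 ± 0.04 (adjusted p = 0.0474 with the block and 1 without it), and within the CDAN1 shRNA clones −0.34 ± 0.06 (adjusted p = 0.0344 with the block and 1 without it), where 1% of genes were called and 0.753% were called lower. Without the block, 0 members and 207 genes (1.47%) had an unadjusted p under 0.05 in those clones, and with it 11 members did, where 13% of genes did. The call over 3 clones was lost without any of the c1 or c2 libraries (adjusted p 0.104 to 0.15), and both calls were lost with transcript length as an offset (0.158 and 0.263). Among the others with the block, ALDOC (−0.36 ± 0.06, adjusted p = 0.0995), PGK1 (−0.20, adjusted p = 0.137), LDHA (−0.20, adjusted p = 0.16), GPI (−0.16, adjusted p = 0.187) and P4HA1 (−0.26, adjusted p = 0.187) missed the threshold. In all, 12 members had an unadjusted p under 0.05 in this blocked fit, where 13.6% of all genes did. Over the same pairs, 8 of 11 megakaryocyte markers tested were lower in all 3 induced libraries and 8 of 14 erythroid markers were higher, and their part in these responses was not tested.

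Whether the CDAN1 shRNA clones answered doxycycline differently from NT was tested by the difference of responses. edgeR called 0 of 32 members and 0% of genes, with 0 members and 79 genes (0.561%) at an unadjusted p under 0.05, while DESeq2 called 0 members and voom 0. With the clone as a block it called 0 members and 19 genes (0.135%), and 5 members had an unadjusted p under 0.05, where 4.92% of all genes did. Those 5 were PFKFB4, ENO2, EGLN3, NDRG1 and VEGFA, for which the log2 response was −0.37, −0.37, −0.51, −0.41 and −0.45 in NT. In c1 the responses were −0.01 for PFKFB4, 0.13 for ENO2, −0.07 for EGLN3, −0.05 for NDRG1 and 0.09 for VEGFA. In c2 they were 0.22 for PFKFB4, −0.01 for ENO2, −0.05 for EGLN3, 0.00 for NDRG1 and −0.12 for VEGFA. The NT response rests on 1 library of each state.

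Further genes of the pathway were read from 3 wider lists. Of 16 genes of the HIF machinery, all tested, 2 were higher and 1 lower in c1 than in NT, 2 higher and 2 lower in c2 than in NT, and 2 higher and 0 lower in c1 than in c2. That made 18.8%, 25.0% and 12.5% of this list, beside the 27.8%, 21.1% and 26.8% of all genes called in the same comparisons. EPAS1, which encodes HIF-2α, averaged 45.2 CPM in clone c1, against 13.2 CPM in clone c2 and 24.2 CPM in NT. It was higher in c1 than in NT (0.87 ± 0.18, adjusted p = 0.0104), lower in c2 than in NT (−0.90 ± 0.19, adjusted p = 0.0141) and higher in c1 than in c2 (1.77 ± 0.18, adjusted p = 0.000535). HIF1A, which encodes HIF-1α, averaged 83.9 CPM in c1, 94.8 CPM in c2 and 66.3 CPM in NT, higher than NT by 0.34 ± 0.07 in c1 (adjusted p = 0.0107) and 0.52 ± 0.07 in c2 (adjusted p = 0.00231). The amount of HIF protein was not measured. EGLN2, the third prolyl hydroxylase, was lower in c2 than in NT (−0.46 ± 0.09, adjusted p = 0.0112).

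Of 29 further HIF targets tested, 6 were higher and 9 lower in c1 than in NT, 4 higher and 5 lower in c2 than in NT, and 6 higher and 2 lower in c1 than in c2. The share called was 51.7% in c1 against NT, 31.0% in c2 against NT and 27.6% in c1 against c2, where 27.8%, 21.1% and 26.8% of all genes were called. BHLHE40, a transcriptional repressor, averaged 199 CPM in c1, 149.98 CPM in c2 and 102 CPM in NT, higher than NT by 0.98 ± 0.10 in c1 (adjusted p = 0.000698) and 0.57 ± 0.10 in c2 (adjusted p = 0.00751). DDIT4, an inhibitor of mTORC1, averaged 268 CPM in c1 and 550.4 CPM in NT (−1.0 ± 0.24, adjusted p = 0.0182). GYS1, the glycogen synthase, was lower in c1 than in NT (−0.60 ± 0.08, adjusted p = 0.00163), and GBE1, the glycogen branching enzyme, was lower in c2 than in NT (−0.71 ± 0.07, adjusted p = 0.000742). Of 37 other glucose and pyruvate genes tested, 9 were higher and 4 lower in c1 than in NT, 6 higher and 1 lower in c2 than in NT, and 6 higher and 8 lower in c1 than in c2, or 35.1%, 18.9% and 37.8% of the list beside those same shares of all genes. BSG, the chaperone of the lactate transporters, averaged 803 CPM in c1, 521 CPM in c2 and 511 CPM in NT (0.65 ± 0.07 for c1 against NT, adjusted p = 0.000782). SLC16A1, the lactate transporter MCT1, was higher in c1 than in NT (0.26 ± 0.05, adjusted p = 0.00713), and ADPGK, an ADP-dependent glucokinase, was lower in c1 than in NT (−0.62 ± 0.07, adjusted p = 0.00101). None of the 3 lists had a call in any comparison of knockdown or doxycycline, with or without the clone block.

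HIF binds DNA at a short core, ACGTG or GCGTG, and these letters were counted on either strand of the promoters of the members. RefSeq promoters (GRCh38.p14, 250 bases before to 50 after each start) were found for 30 of the 33 genes, all but SLC2A3, NDRG1 and VEGFA. ACGTG occurred in 19 of them (63.3%), and in 24.9% of 27305 genes. Those 27305 genes were not matched to the members for expression or base composition, and the difference was not tested. Counted by promoter window, since some genes have several starts, it occurred in 23 of 56 member windows (41.1%) and in 21.4% of 35116 windows. With either core, 27 of 30 members and 52.4% of all genes held a match. ACGTG overlaps CACGTG, the E-box bound by MYC and USF factors, and a match does not show binding. Of the 14 members that were called between clones and had a promoter here, 10 held ACGTG in at least 1 window (ALDOC, BNIP3, EGLN1, ENO2, PDK1, PFKFB3, PFKM, PFKP, PGK1 and SLC16A3) and 4 held GCGTG only (ENO1, LDHB, PKM and SLC2A1). Of the other 16, 9 held ACGTG, 4 held GCGTG only and 3 (EGLN3, P4HA2 and PGAM1) held neither. A 30-base stretch with ACGTG is shown for 5 of the called genes, picked after their values were seen, and for LDHA as a gene not called, to show the letters around the core. Each runs 5′ to 3′ on the gene's strand with the core in capitals. They lie at chr10:3069038-3069067 (plus strand), chr10:6202813-6202842 (plus), chr17:28577116-28577145 (minus), chr12:6914450-6914479 (plus), chrX:78104034-78104063 (plus) and chr11:18394367-18394396 (plus).
PFKP: ccacgagcgcctACGTGatgcccggcccgt
PFKFB3: accctcctccccACGTGgaagggggctggg
ALDOC: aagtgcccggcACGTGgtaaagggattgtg
ENO2: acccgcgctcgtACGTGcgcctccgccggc
PGK1: gcggcgtgccggACGTGacaaacggaagcc
LDHA: gactcccagcgcACGTGgagcagtctgccg
PFKP and ALDOC were lowest in c1, PFKFB3 was highest in c2, ENO2 and PGK1 were lowest in NT, and LDHA was not called between any clones. Whether the core letters go with the differences between clones was not tested.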

How the data were processed

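Per the labels, 6 libraries of K562 cells were made from total RNA with the NEBNext Ultra kit. Per the submitters' processing notes, Salmon 1.5.2 was run against GRCh37 (hg19). The deposited tables hold, per the file headers, an estimated count of reads (expected count) and a length-scaled value in TPM for each of 167268 transcripts. Of trimming, the annotation and the strand of the libraries the sources used here say nothing. Without strand, overlapping and antisense genes cannot be told apart, and genes with near-identical copies (GAPDH, PGK1, PGAM1, LDHA, ENO1, TPI1, BNIP3, SLC2A3) are uncertain.

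Of the transcripts, 151039 (90.3%) matched GENCODE 29 by identifier and were summed to 33367 genes, and counts were rounded. The other 16229, with 6.23% to 6.5% of reads, were left out. GENCODE 29 lies on GRCh38, and gene coordinates are given on it. Genes with at least 10 reads (scaled to the median library) in 2 libraries and 15 in all were kept, which left 14075 of 21165. CPM were scaled by TMM and log2 responses used a prior count of 2. Tests used edgeR 4.0.16 (quasi-likelihood, two-sided, Benjamini-Hochberg over all genes, threshold 0.05) in R 4.3.3, with scripts tested on simulated data. Knockdown against controls, the CDAN1 shRNA response, its difference from NT and doxycycline over 3 clones were fitted without a block, and clone differences with doxycycline as a term. Alternatives were RLE size factors, no filter, DESeq2 1.42.0, limma 3.58.1 (voom), a transcript length offset, the clone as a block, no doxycycline term and leaving out each library. The clone pairs the libraries, as each clone gave both states, and deviations from the mean of a state correlated across genes within clones (r = 0.679 for c1, 0.741 for c2 and 0.608 for NT).

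Every member is accounted for. Given in every library were the members called in any comparison or its blocked fit, with those of largest change in a clone comparison (mean of 10 CPM or more) in full. From wider lists only called genes with a mean of 10 CPM or more were named. The members and lists were chosen with earlier results of these data known.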

Additional observations from a re-analysis of the deposited data

Results flagged for a closer look

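Among the 4 control libraries (uninduced c1 and c2, induced and uninduced NT), 32 members were examined for a library far from the others, and 2 had one. The check marks about 1 in 20 groups by chance where all 4 libraries are alike. Here they came from 3 clones and both doxycycline states, so that rate need not hold. SLC2A1 was at 221 CPM in uninduced c2, where the other 3 controls lay between 276 and 283 CPM. HK1 was at 826 CPM in uninduced c1, where the other 3 lay between 898 and 903 CPM. Induced c2 was also below the other clones for SLC2A1, at 248 CPM, while induced c1 stood at 880.2 CPM for HK1.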

How the results depend on the processing

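No direction was reversed in any alternative. Of the 31 member calls between clones, 31 remained with limma voom and without the filter on low counts, 29 with RLE, 27 with DESeq2, 23 with the transcript length offset and 17 without the doxycycline term, where the counts became 6 in c1 against NT, 6 in c2 against NT and 5 in c1 against c2. Leaving out a library gave 6 to 10 members in c1 against NT, 3 to 13 in c2 against NT (3 without induced c2, 7 without uninduced c2, 7 without induced NT, 6 without uninduced NT) and 5 to 12 in c1 against c2 (5 without induced c2 and 6 without uninduced c2). The calls of all genes then were 2319 to 3245, 1022 to 3502 and 1565 to 3962. A clone left with 1 library was assumed to vary like the others. Called in every unblocked setting were EGLN1, ENO2, NDRG1, PGK1 and SLC16A3 (c1 against NT), PFKFB3, PFKP and PKM (c2 against NT), and ALDOC, PFKFB3, PFKP and PKM (c1 against c2).

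With the clone as a replicate block, 1 member was called among induced against uninduced CDAN1 shRNA clones and 1 over 3 clones, both SLC2A3, and the block changed no other call of a member. Where 0 genes were called without the block, those called with it were 6 for knockdown against controls, 141 for the CDAN1 shRNA clones, 19 for the difference of responses and 18 over 3 clones. Alternatives chosen after seeing the data were other tools and left-out libraries with the block and other scalings of the pair counts. With the block, DESeq2 called 1 member (SLC2A3) for knockdown, 1 for the CDAN1 shRNA clones and 3 (ALDOC, LDHA and SLC2A3) over 3 clones, and voom called 0, 1 and 1. Over 3 clones, the blocked fit called 1 without induced NT, 1 without uninduced NT and 0 without any c1 or c2 library. The difference of responses could not be fitted without an NT library, nor the blocked CDAN1 shRNA comparison with a library left out. With 1 library per clone and state, differences near the errors given were not detectable.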

Other observations

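DDIT4, a HIF and stress target outside the 33 genes, stood at 308 CPM in induced and 228 CPM in uninduced c1, at 323 and 358 CPM in induced and uninduced c2, and at 398 and 702 CPM in induced and uninduced NT. EPAS1 stood at 53.3 and 37.1 CPM in induced and uninduced c1, at 15.2 and 11.3 CPM in induced and uninduced c2, and at 21.8 and 26.6 CPM in induced and uninduced NT. Its induced library was thus the higher in c1 and c2 and the lower in NT, with 1 library per clone and state. The difference of responses was not called for EPAS1, with or without the clone block.

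SLC16A3-211, a transcript of the lactate exporter gene, held 84.6% and 85.1% of the estimated SLC16A3 reads in induced and uninduced c1, 59.9% and 46.0% in induced and uninduced c2, and 37.8% and 28.8% in induced and uninduced NT. In level, SLC16A3-211 was at 2.57 to 3.52 CPM in the 6 libraries. The gene lay at 3.74 to 8.89 CPM, so these shares rest on few reads.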
